A study of Homo sapiens with 6 samples.

Results

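The 37 nuclear genes described here encode the aminoacyl-tRNA synthetases of human lung fibroblasts. They were chosen by function, from the gene symbols of the deposited table. The rule uses no measured value, but these genes were chosen with earlier results of these data known. TARSL2, a further threonyl-tRNA synthetase gene, was counted with the other genes of tRNA charging and is not among them. They make up 37 of the 23754 features in the table, and comprise 20 genes for the cytosolic enzymes and 17 for the enzymes that act only in mitochondria. Gene symbols are given in their current form (WARS1), while the table uses the older one (WARS). All 37 had enough reads to be tested. The libraries came from IMR-90, an established fibroblast line from human fetal lung, carrying a doxycycline-inducible short hairpin (sh-2, in the vector Tet-pLKO-puro) against ZNF469, a large zinc-finger gene linked to the extracellular matrix. The 3 DOX+ libraries came from cells given 2 µg/mL doxycycline for 4 days. The 3 DOX- libraries came from the same line without doxycycline, which the labels call wild-type. Puromycin at 0.5 µg/mL was present in both groups. No library came from cells given doxycycline in the absence of the hairpin, so an effect of the drug and an effect of the hairpin cannot be told apart. The labels call the libraries of a group technical replicates, so the p-values below measure the spread between libraries, which may be technical.

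Aminoacyl-tRNA synthetases join each amino acid to its tRNA, the step that sets the meaning of the genetic code, and cells keep separate enzymes for the cytosol and for mitochondria. The mitochondrial enzymes are also made from nuclear genes and imported. Most amino acids therefore have a pair of genes, here written as the amino acid letter followed by ARS1 for the cytosolic enzyme and ARS2 for the mitochondrial enzyme. GARS1 (glycine) and KARS1 (lysine) serve both compartments, QARS1 (glutamine) has no mitochondrial counterpart because mitochondria make glutaminyl-tRNA by an indirect route, and EPRS1 joins glutamate and proline synthetases in one polypeptide. Several cytosolic enzymes sit together in the multisynthetase complex, held by the scaffold proteins AIMP1, AIMP2 and EEF1E1 (AIMP3). Many of the cytosolic genes are known targets of ATF4, the transcription factor of the amino acid and integrated stress responses, which binds with C/EBP partners to a composite DNA element.

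Total counts ranged from 34057675 to 36120260 per library. ZNF469 (chromosome 16, 88382959-88440757, GRCh38) was measured at 118.7 ± 7.25 CPM (counts scaled to library size, SD, n = 3) in DOX- and 80.1 ± 0.488 CPM in DOX+, or 67.5% of the DOX- level, with a log2 fold change of -0.57 (SE 0.0477, edgeR quasi-likelihood test, Benjamini-Hochberg adjusted p = 3.31e-05), so the targeted transcript was lower in the induced libraries. All 10 fibroblast markers were expressed, at a summed 8526 to 8588 FPKM (counts scaled to both gene length and library size) in DOX- and 7309 to 7395 FPKM in DOX+. Markers of epithelium summed to 60.8 to 64.0 and 64.7 to 76.3 FPKM, nearly all of it KRT18, with SFTPC and SCGB1A1 at 0. Endothelial markers stayed at or under 0.135 FPKM with CDH5 and PECAM1 at 0, and leukocyte markers summed to 29.4 to 32.4 FPKM, nearly all of it CD68, with CD3E at 0. The fibroblast sum was lower and the epithelial sum higher in DOX+, and their part in the synthetase results was not tested. The fibroblast markers include the collagen genes COL1A1, COL1A2 and COL3A1, so their sum is not a measure of cell identity alone.

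After induction of the hairpin, 5 of the 20 cytosolic synthetase genes fell and 0 rose at an adjusted p under 0.05, while 0 of the 17 mitochondrial genes were called in either direction. The genes that fell were WARS1, MARS1, GARS1, CARS1 and SARS1, which charge tRNAs with tryptophan, methionine, glycine, cysteine and serine, and their DOX+ levels were between 78.8% and 88.6% of the DOX- levels. In bulk RNA, fewer cells of a kind and less RNA per cell cannot be told apart. Among all 13991 features tested, 0.715% were called lower and 0.4% higher by the same rule. At an unadjusted p under 0.05, 11 cytosolic genes were lower and 1 was higher, against 2 and 0 mitochondrial genes, and the background was 7.69% lower and 7.31% higher. The median log2 fold change was -0.10 over the cytosolic genes (range -0.34 to 0.12) and 0.023 over the mitochondrial genes (range -0.25 to 0.14), beside -0.0019 over all features tested. The mean over the mitochondrial genes was -0.013, of the other sign than their median. A negative log2 fold change was seen for 17 of the 20 cytosolic and 6 of the 17 mitochondrial genes, beside 7087 of the 13991 features, although 9 of the 35 genes examined singly, with values of at most 0.0460 in size, changed sign under some alternative fit.

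**Figure D1:**
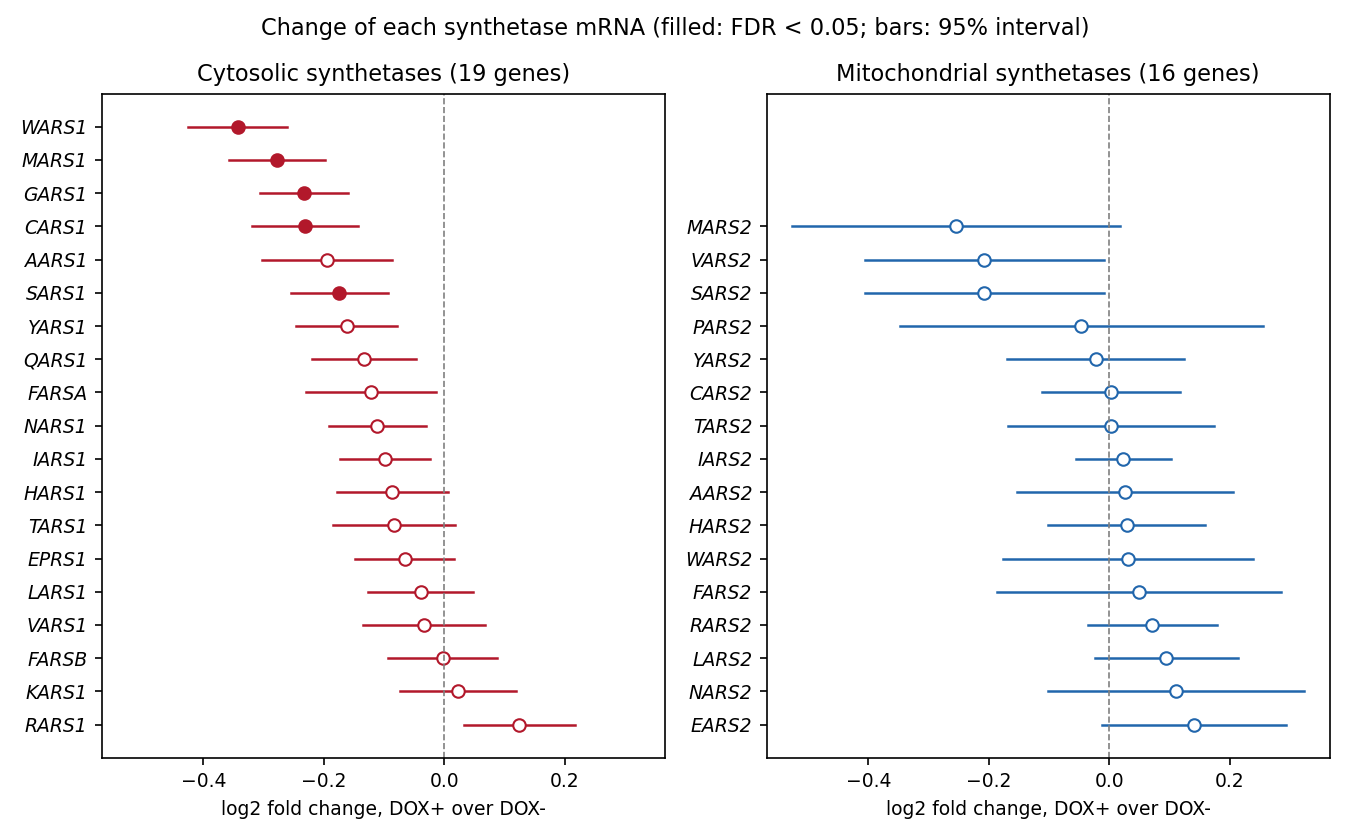
Log2 fold change (DOX+ over DOX-) of 19 cytosolic and 16 mitochondrial synthetase genes on the horizontal axis, 1 gene per row, with 95% intervals from the edgeR fit as bars. Filled points are the genes called at an adjusted p under 0.05, and all 5 of them are cytosolic, from WARS1 at -0.34 to SARS1 at -0.17.

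WARS1 (ENSG00000140105, chromosome 14, 100333790-100376805, minus strand) encodes tryptophanyl-tRNA synthetase and had the lowest log2 fold change and the smallest p of the 37 genes. It was measured at 146.9, 145.0 and 149.7 CPM in the DOX- libraries and at 115.0, 115.0 and 118.1 CPM in the DOX+ libraries. The groups were far apart for the spread within them, at 147.2 ± 2.32 against 116.0 ± 1.78 CPM (SD, n = 3 each). The log2 fold change was -0.34 (SE 0.0377, edgeR adjusted p = 0.00041), and WARS1 ranked 19th by p among all features tested. The call held under all 16 alternative fits. The gene shares 287 exonic bases with WDR25 on the opposite strand, and the library kit does not mark strand. WDR25 was counted at 9.80 CPM in DOX- and 8.39 CPM in DOX+, and the part of reads from the shared bases in the WARS1 values was not tested.

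MARS1 (ENSG00000166986, chromosome 12, 57475445-57517569, plus strand) encodes methionyl-tRNA synthetase, a member of the multisynthetase complex that charges both initiator and elongator tRNAs. Its level was 194.4, 193.0 and 195.6 CPM in DOX- and 164.7, 155.6 and 160.7 CPM in DOX+. All DOX+ libraries lay below all DOX- libraries, with means of 194.3 ± 1.31 and 160.3 ± 4.53 CPM. The log2 fold change was -0.28 (SE 0.0370, edgeR adjusted p = 0.00221), and it was called in all 16 alternatives. MARS1 shares 355 exonic bases with DDIT3, a stress-response gene on the opposite strand, so reads from that stretch could have been given to either gene. DDIT3 went from 20.3 ± 1.52 to 16.4 ± 1.07 CPM (log2 fold change -0.31, edgeR adjusted p = 0.0949), and the part of the shared stretch in the MARS1 values was not tested.

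GARS1 (ENSG00000106105, chromosome 7, 30580533-30634033, plus strand) encodes glycyl-tRNA synthetase for both compartments. It was at 249.6, 242.3 and 251.0 CPM in DOX- and at 210.7, 210.7 and 210.8 CPM in DOX+, so the DOX+ libraries were nearly equal and all below DOX-. The means were 247.6 ± 4.64 and 210.7 ± 0.0506 CPM, and the log2 fold change was -0.23 (SE 0.0340, edgeR adjusted p = 0.00431). It was called in 15 of 16 alternatives and missed the threshold when the deposited FPKM values were tested (limma, adjusted p = 0.0732).

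CARS1 (ENSG00000110619, chromosome 11, 3000922-3057613, minus strand) encodes cysteinyl-tRNA synthetase. The DOX- libraries gave 109.8, 107.5 and 108.1 CPM and the DOX+ libraries 92.7, 89.3 and 94.9 CPM. Here too the groups did not overlap, at 108.4 ± 1.19 and 92.3 ± 2.82 CPM. The log2 fold change was -0.23 (SE 0.0407, edgeR adjusted p = 0.0129). This call rested on the full set of libraries, since the edgeR adjusted p was 0.0839 without DOX- replicate 1, 0.0553 without DOX- replicate 3 and 0.093 without DOX+ replicate 1, while the log2 fold change stayed between -0.25 and -0.21. On the deposited FPKM the adjusted p was 0.141 (limma).

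SARS1 (ENSG00000031698, chromosome 1, 109213918-109238182, plus strand) encodes seryl-tRNA synthetase, whose product also feeds selenocysteine synthesis. It was at 245.9, 242.2 and 250.2 CPM in DOX- and at 216.7, 211.2 and 226.4 CPM in DOX+. The groups were separated, at 246.1 ± 3.97 and 218.1 ± 7.68 CPM, with a log2 fold change of -0.17 (SE 0.0374, edgeR adjusted p = 0.0453). This call was close to the threshold and held in 7 of 16 alternatives. It missed the threshold with upper-quartile or total count scaling, with a length trend removed and on the deposited FPKM (adjusted p = 0.0561, 0.0628 and 0.0684 by edgeR and 0.184 by limma). It held without DOX+ replicate 3 (edgeR adjusted p = 0.033) and was lost when any other library was left out, with edgeR adjusted p-values of 0.152, 0.0978 and 0.179 without DOX- replicates 1, 2 and 3, and 0.191 and 0.117 without DOX+ replicates 1 and 2.

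The number of cytosolic genes called lower differed between fits and is given beside the share of all features called lower in the same fit. It was 5 with DESeq2 size factors (background 0.672%), with a stricter filter of CPM over 1 (0.834%) and with limma-voom (0.7%), and 4 with upper-quartile scaling (0.65%), total count scaling (0.55%) and a length trend removed (0.775%). It was 7 with no filter (0.873%), 3 at an adjusted p under 0.01 (0.386%) and 2 on the deposited FPKM (0.172%), where WARS1 and MARS1 were called. Leaving out DOX- replicates 1, 2 and 3 gave 3, 4 and 3 genes (0.386%, 0.478% and 0.407%), and leaving out DOX+ replicates 1, 2 and 3 gave 3, 4 and 6 (0.38%, 0.548% and 0.646%).

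**Figure D2:**
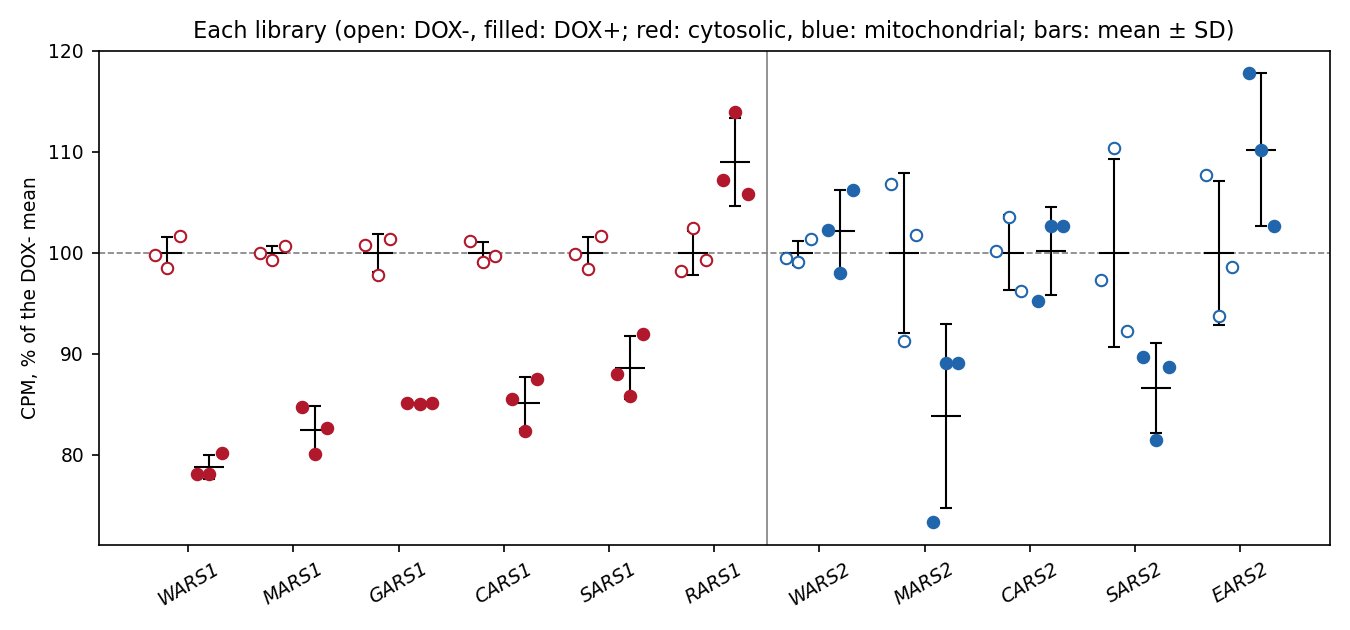
CPM of each library as a percent of the DOX- mean (vertical axis) for the 5 called cytosolic genes and RARS1 in red and for WARS2, MARS2, CARS2, SARS2 and EARS2 in blue, with open points for DOX-, filled points for DOX+ and bars for the mean ± SD (n = 3). The DOX+ points lie below all DOX- points for the 5 called genes, with means from 78.8% to 88.6%. They also lie below for MARS2 and SARS2, which were not called, with means of 83.8% and 86.6%. They lie above all DOX- points for RARS1, and overlap them for WARS2, CARS2 and EARS2.

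Of the 15 cytosolic genes that were not called, 12 had a negative and 3 a positive log2 fold change. AARS1 (alanine, -0.19, adjusted p = 0.0858), YARS1 (tyrosine, -0.16, adjusted p = 0.0706) and QARS1 (glutamine, -0.13, adjusted p = 0.142 by edgeR) came nearest to the threshold on the lower side. These are the 3 genes that a DESeq2 test added, bringing its count to 8 cytosolic genes lower, where 1.91% of all features were called lower by DESeq2. AARS1 was also called when DOX+ replicate 3 was left out (edgeR adjusted p = 0.0311). The DOX+ and DOX- libraries did not overlap for 10 cytosolic genes with DOX+ lower and for 2 with DOX+ higher, and such separation was found for 10.6% and 9.73% of all features. Besides the 5 called genes, the separated lower genes were YARS1, QARS1, NARS1 (asparagine), IARS1 (isoleucine) and AARS1.

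The largest positive log2 fold change of the cytosolic list was that of RARS1 (ENSG00000113643), arginyl-tRNA synthetase, a complex member. It was at 110.9, 115.7 and 112.2 CPM in DOX- and at 121.1, 128.7 and 119.6 CPM in DOX+. All DOX+ libraries were above all DOX- libraries, at 112.9 ± 2.51 against 123.1 ± 4.88 CPM, with a log2 fold change of 0.12 (SE 0.0425), and the edgeR adjusted p was 0.191. KARS1 (lysine), also in the multisynthetase complex, was at 0.022 (edgeR adjusted p = 0.863). The log2 fold changes of FARSA and FARSB, the subunits of the cytosolic phenylalanine enzyme, were -0.12 and -0.0027 (edgeR adjusted p = 0.274 and 0.985).

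By known grouping, 1 of the 8 synthetase genes of the multisynthetase complex was called lower (MARS1), with a median log2 fold change of -0.053, and 4 of the 12 genes outside it, with a median of -0.14. All 12 genes outside the complex had a negative log2 fold change, though FARSB (-0.0027) and VARS1 (-0.034) turned positive in 5 and 1 of the 16 alternative fits. The catalytic classes, which differ in the fold of the active site, gave close medians of -0.13 for the 9 class I genes (3 called) and -0.099 for the 10 class II genes (2 called), with EPRS1 holding both. Among the cytosolic genes, 13 are described as responsive to ATF4, and these included all 5 called genes, 13 negative log2 fold changes and a median of -0.16. VARS1 is one of these 13. The other 7 cytosolic genes had a median of -0.0027 and 0 calls. These splits describe the same fit, in which 0.715% of all features tested were called lower, and no difference between them was tested. The groupings were set with earlier results of these data known.

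GARS1 and KARS1 serve both compartments and are counted with the cytosolic genes, and GARS1 was called lower. Of the 17 genes for purely mitochondrial enzymes, 0 had an adjusted p under 0.05 by edgeR (background 0.715% lower and 0.4% higher). At an unadjusted p under 0.05 by edgeR, 2 were lower and 0 higher (background 7.69% and 7.31%). At an adjusted p under 0.05, 0 were called by DESeq2 (background 1.91% lower and 1.86% higher). The number was also 0 by limma-voom (0.7% lower and 0.4% higher). MARS2 (ENSG00000247626, methionine), a gene with a single exon in the annotation, had the lowest log2 fold change. It was at 7.88, 6.74 and 7.51 CPM in DOX- and at 5.41, 6.57 and 6.57 CPM in DOX+. The groups did not overlap but their nearest libraries were close, at 7.38 ± 0.585 against 6.18 ± 0.671 CPM, and the log2 fold change was -0.25 (SE 0.126, edgeR adjusted p = 0.369).

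SARS2, the mitochondrial serine enzyme, gave 14.8, 16.8 and 14.05 CPM in DOX- and 13.7, 12.4 and 13.5 CPM in DOX+, also without overlap. Its log2 fold change was -0.21 (SE 0.0917, edgeR adjusted p = 0.31). The value of VARS2 (valine) was the same to this precision, at -0.21 (SE 0.0917, edgeR adjusted p = 0.31). MARS2, SARS2 and VARS2 were the 3 mitochondrial genes with all DOX+ libraries below DOX-, and LARS2 (leucine, log2 fold change 0.095) was the 1 gene with all DOX+ libraries above. The other 13 overlapped. Among all features tested, such separation was found for 10.6% with DOX+ lower and for 9.73% with DOX+ higher.

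WARS2, the partner of the gene with the lowest log2 fold change, was at 9.66, 9.61 and 9.83 CPM in DOX- and at 9.92, 9.51 and 10.3 CPM in DOX+, so the groups overlapped. Its log2 fold change was 0.031 (SE 0.0957, edgeR adjusted p = 0.918). CARS2 was at 41.6, 43.0 and 39.9 CPM in DOX- and at 39.5, 42.6 and 42.6 CPM in DOX+, with a log2 fold change of 0.0027 (SE 0.0529, edgeR adjusted p = 0.989). EARS2, the mitochondrial glutamate enzyme that also starts the indirect route to glutaminyl-tRNA, had the highest log2 fold change of the list. It was at 28.9, 25.2 and 26.5 CPM in DOX- and at 31.6, 29.6 and 27.6 CPM in DOX+, and these ranges overlapped (0.14, SE 0.0707, edgeR adjusted p = 0.375).

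The mitochondrial genes were less abundant and less precisely measured. Per length, DOX- levels had a median of 44.6 FPKM over the cytosolic genes (18.1 to 119.4) and of 6.49 FPKM over the mitochondrial genes (1.73 to 40.8), beside 5.88 FPKM over all features tested. The standard error of the log2 fold change had a median of 0.0406 for cytosolic genes (0.0340 to 0.0499) and of 0.0790 for mitochondrial genes (0.0365 to 0.140). A decrease as large as the median of the called genes (-0.23) lay outside the 95% interval of 13 of the 17 mitochondrial genes, and inside it for 4. For a decrease as large as that of SARS1 (-0.17), 10 intervals excluded it and 7 did not. IARS2, the most abundant mitochondrial gene, was at 161.4 ± 2.96 and 164.0 ± 2.17 CPM, with a log2 fold change of 0.023 (SE 0.0365, edgeR adjusted p = 0.811), while PARS2 (proline) had the fewest reads and the largest SE. A smaller difference in the low genes was not detectable at this depth.

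**Figure D3:**
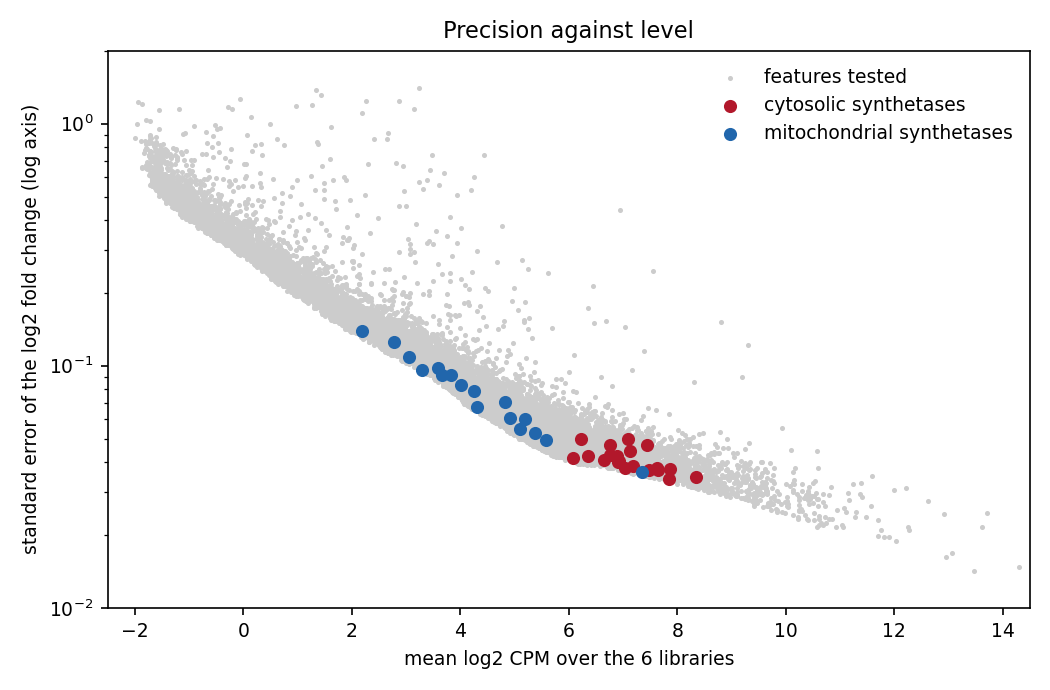
Standard error of the log2 fold change on a log axis against the mean log2 CPM over the libraries, with features tested in grey, cytosolic synthetases in red and mitochondrial synthetases in blue. The SE runs from 0.0340 to 0.0499 for the cytosolic genes and up to 0.140 for PARS2, the least abundant mitochondrial gene, and both sets lie along the band of all features.

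Most of the amino acids with separate genes allow the cytosolic and the mitochondrial enzyme to be set against each other within the same libraries. Values are given for 15 such pairs, counting FARSA and FARSB each against FARS2. The cytosolic transcript was the more abundant per length in DOX- in 15 of 15 pairs, by 1.69 times (IARS1 over IARS2) to 27.2 times (MARS1 over MARS2) in FPKM, with a median of 6.53. The cytosolic log2 fold change was below the mitochondrial one in 12 pairs and above it in 3, with a median difference of -0.12.

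The ratio of WARS1 to WARS2 in CPM was 15.2, 15.1 and 15.2 in DOX- and 11.6, 12.1 and 11.5 in DOX+, the widest separation of the pairs. The difference in log2 fold change was -0.37 (SE 0.103). For CARS1 over CARS2 the ratio was 2.64, 2.50 and 2.71 in DOX- and 2.35, 2.10 and 2.23 in DOX+, a difference of -0.23 (SE 0.0668). The ratios of NARS, YARS and IARS were also separated with DOX+ lower, and that of VARS (difference 0.17, SE 0.103) was separated with DOX+ higher. These 6 pairs reached p = 0.1 in the two-sided exact permutation test of the ratio, the smallest value that 3 against 3 libraries allow, so no pair could pass 0.05. Of all single features tested, 10.6% were separated with DOX+ lower and 9.73% with DOX+ higher. The share among ratios of other genes was not examined. For MARS and SARS, whose cytosolic genes were both called, the differences were -0.023 (SE 0.131) and 0.033 (SE 0.0990), and the pair members could not be told apart at this precision.

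**Figure D4:**
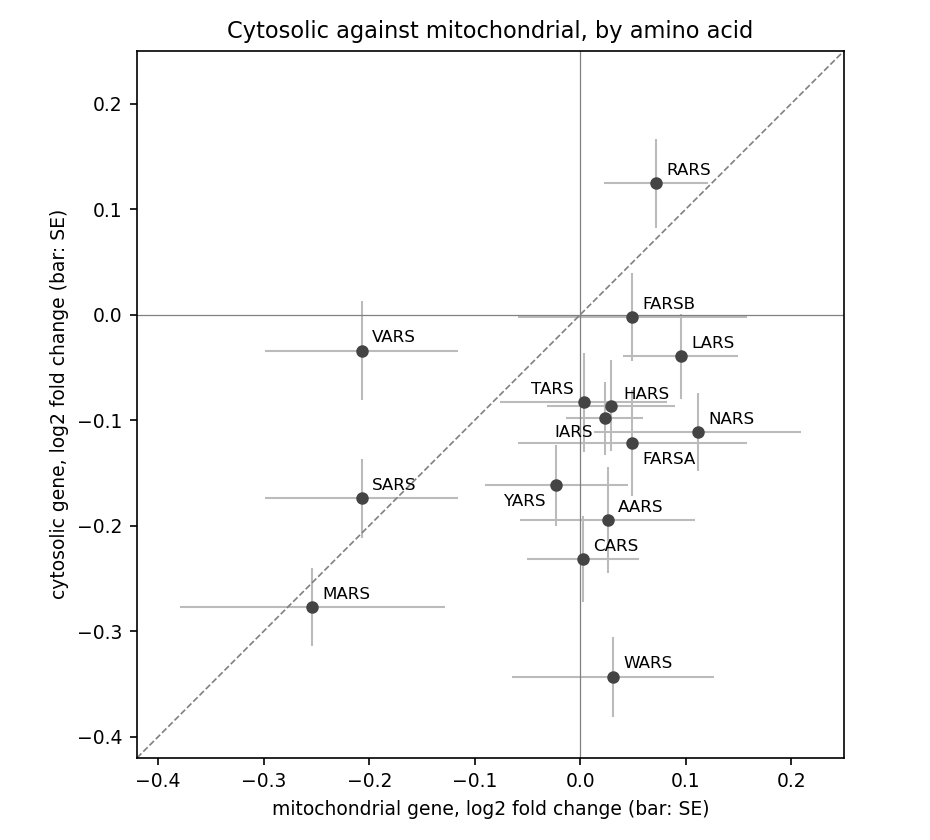
Log2 fold change of the cytosolic gene (vertical axis) against that of the mitochondrial gene for the same amino acid (horizontal axis), with SE bars and the line of equality dashed, for the 15 pairs. In 12 pairs the point lies below the line, with WARS farthest from it at a difference of -0.37, and MARS and SARS lie near it.

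Per library, the mean log2 deviation of the 20 cytosolic genes from their DOX- means was 0.012, -0.0023 and -0.0097 in DOX- and -0.112, -0.115 and -0.0983 in DOX+, so each DOX+ library showed the lower level. For the 17 mitochondrial genes it was 0.0289, -0.0374 and 0.00848 in DOX- and -0.00044, -0.00807 and -0.0291 in DOX+, with overlap. The summed cytosolic synthetase transcripts were 3116 ± 24.6 CPM in DOX- and 2866 ± 9.44 CPM in DOX+, and the mitochondrial ones 500.9 ± 3.85 and 506.6 ± 6.29 CPM. The ratio of the sums was 6.22 ± 0.0196 in DOX- and 5.66 ± 0.0884 in DOX+, with every DOX+ library below every DOX- library. These sums are set mostly by the abundant members, and are given as a description.

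**Figure D5:**
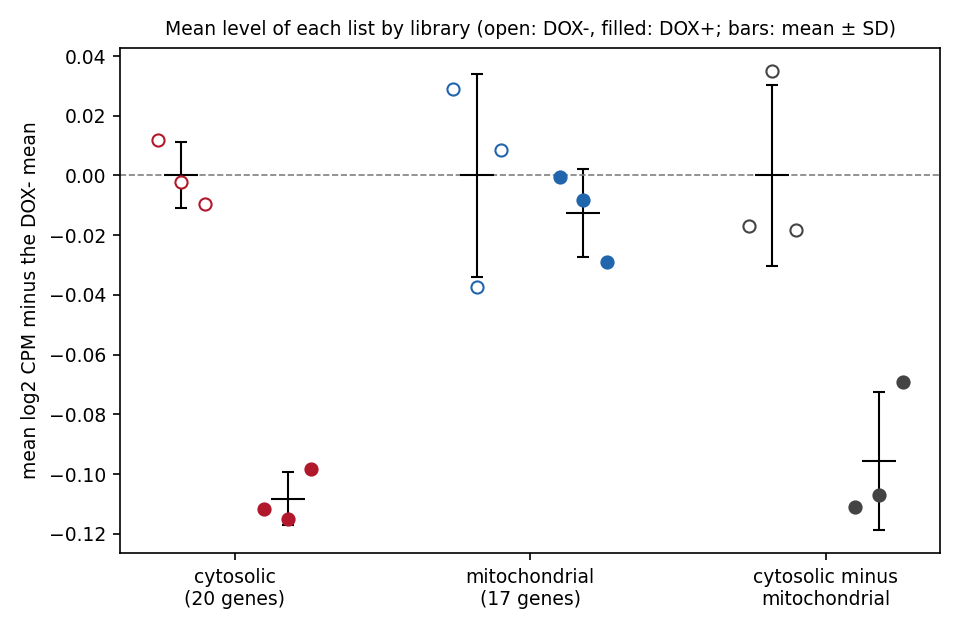
Mean log2 CPM minus the DOX- mean (vertical axis) over the 20 cytosolic genes, over the 17 mitochondrial genes and for the difference between these lists, 1 point per library, open for DOX- and filled for DOX+, with bars for the mean ± SD. The cytosolic DOX+ points sit between -0.115 and -0.0983, below all cytosolic DOX- points, while the mitochondrial groups overlap.

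The promoters were searched because many of the cytosolic genes are described as ATF4 targets. RefSeq promoter sequences (GRCh38.p14, 250 bases before to 50 after each transcription start) were matched for 30 of the 37 genes at 39 start sites, and the other 7, YARS1 among them, had no entry. The C/EBP-ATF composite element TGATGNAA, on either strand, was present in 7 of 16 cytosolic genes (43.8%) and in 1 of 14 mitochondrial genes (7.14%), beside 4.46% of all 27305 genes with a promoter and 2.75% of the 9991 tested ones. Its form TGATGCAA, a subset of these matches, was in 6 of 16 cytosolic genes, in 0 of 14 mitochondrial genes and in 1.08% of all genes. The cAMP-response element TGACGTCA was in 0 of the cytosolic and 0 of the mitochondrial promoters, beside 2.25% of all genes. All 8 matches follow, 5′ to 3′ on the strand of the gene, with the 8 matching bases in capitals, since they let the shared letters be compared between genes.
AARS1, chr16:70289660-70289719 (minus strand): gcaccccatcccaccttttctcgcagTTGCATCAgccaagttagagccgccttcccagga
CARS1, chr11:3057407-3057436 (minus strand): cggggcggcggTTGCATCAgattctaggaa
GARS1, chr7:30594819-30594877 (plus strand): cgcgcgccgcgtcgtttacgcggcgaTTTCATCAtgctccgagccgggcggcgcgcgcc
IARS1, chr9:92293698-92293736 (minus strand): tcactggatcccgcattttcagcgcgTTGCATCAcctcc
MARS1, chr12:57488053-57488082 (plus strand): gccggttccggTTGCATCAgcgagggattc
NARS1, chr18:57621804-57621833 (minus strand): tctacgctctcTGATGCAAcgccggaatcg
TARS1, chr5:33440956-33440985 (plus strand): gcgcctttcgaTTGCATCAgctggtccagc
YARS2, chr12:32756061-32756120 (minus strand): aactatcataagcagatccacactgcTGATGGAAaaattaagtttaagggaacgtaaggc

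Of the cytosolic matches, 5 read TTGCATCA on the gene's strand (AARS1, CARS1, IARS1, MARS1 and TARS1), NARS1 carries the same letters on the other strand as TGATGCAA, and GARS1 reads TTTCATCA. The matches lie near the start site in CARS1 (2 bases before it), MARS1 (4 before), IARS1 (13 before), GARS1 (33 before), TARS1 (3 after) and NARS1 (15 after), and farther upstream in AARS1 (187 before) and in YARS2 (197 before), the 1 mitochondrial gene. The 7 cytosolic genes with a match had log2 fold changes from -0.28 to -0.083 (median -0.19), with 3 called and the libraries of 6 separated. Among all features tested, 0.715% were called lower and 10.6% were separated with DOX+ lower. The 9 cytosolic genes with a promoter entry and no match ranged from -0.34 to 0.12 (median -0.086), and 2 of these were called, WARS1 and SARS1. Of these 9 genes, 7 had a negative log2 fold change, and the libraries of 3 were separated with DOX+ lower. YARS2 was at -0.023 (edgeR adjusted p = 0.916). A match of letters is not a measured binding site, and these libraries hold no measurement of binding.

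Genes that work beside the synthetases were counted by the same rule, by which 0.715% of all features tested were called lower and 0.4% higher. At an unadjusted p under 0.05 by edgeR, 7.69% of all features were lower and 7.31% higher. Of the scaffold genes, AIMP1 was at -0.033 (edgeR adjusted p = 0.861), AIMP2 at -0.17 (0.316) and EEF1E1 at -0.015 (0.934) on the log2 scale, and 0 of 3 were called. Of 10 other genes of tRNA charging, such as the editing factors DTD1 and AARSD1 and the mitochondrial amidotransferase subunits GATB, GATC and QRSL1, 0 were called, and of 26 genes of tRNA maturation and export 0 were called by edgeR, with 1 lower and 2 higher at an unadjusted p under 0.05. A list of ATF4 itself and genes described as its targets outside the synthetases held 29 tested genes. Of these, 15 were called lower and 0 higher, with a median log2 fold change of -0.32. The 4 of these with the smallest p were ASNS (asparagine synthesis, -0.65), PSAT1 (serine synthesis, -0.67), SLC7A5 (amino acid import, -0.49) and PHGDH (serine synthesis, -0.47). ATF4 mRNA itself was at 305.6 ± 6.83 CPM in DOX- and 277.2 ± 7.24 CPM in DOX+ (log2 fold change -0.14, edgeR adjusted p = 0.0795), and its protein, which is set largely by translation, was not measured here.

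Some identities carry a limit from read assignment. GENCODE names 14 pseudogene copies of synthetase genes, among them WARS1P1, CARS1P1, CARS1P2 and GARS1P1, and 0 of these have a row in the table. Whether reads from a copy were counted under its parent gene was not tested. Names of copies of MARS1 and SARS1 were not found. HARS1 and HARS2 share 108 exonic bases across strands, and SARS2 shares 48.2% of its exonic bases with a locus on the same strand listed at 0 counts.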

How the data were processed

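Poly(A)-selected RNA from 3 DOX- and 3 DOX+ libraries of IMR-90 cells was made into libraries with a kit that does not mark strand and sequenced as 150 bp read pairs. The authors aligned reads to GRCh38 with HISAT2 and used StringTie (versions not given in the sources used here). The deposited table gives raw read counts per gene, and FPKM values normalised by the authors for length and depth. Of its lines, 17 held no gene and were dropped, and 3780 unannotated loci took 0.938 to 0.996% of counts.

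Counts were tested with edgeR 4.0.16 (R 4.3.3): filterByExpr with a minimum count of 10 (13991 features kept), TMM scaling, quasi-likelihood F test of DOX+ against DOX- without covariates, and Benjamini-Hochberg adjustment over all features kept, with calls at 0.05. CPM use TMM library sizes. The code was first tested on simulated data with log2 fold changes of 0.5 or 1 in size, larger than those of the called synthetases. In that simulation, 70.4% and 87.8% of the changed genes were called, and 7.74% of calls were false. No pair of libraries agreed within sampling noise. Coordinates and exon overlaps came from GENCODE 44. Alternatives were other scalings and filters, DESeq2 1.42.0, limma-voom (limma 3.58.1), a replicate block, a length trend, each library left out, other thresholds and, chosen after seeing the data, limma on log2(FPKM + 1). The members and lists were chosen with earlier results of these data known. Full values were given for called members, for the gene of the same amino acid in the other compartment and for the extremes of each list, and for the scaffold genes. Of each other list, up to 4 called genes with the smallest p were named. Genes named in passing beyond this rule were chosen after their values were seen. Counts, medians and sums over the lists cover all 37 members, and 2 members are not reported singly here.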

Additional observations from a re-analysis of the deposited data

How the results depend on the processing

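Where a value moved below, the cause was not tested. The counts of all features called (100 lower, 56 higher) became 163 and 127 with no filter, 267 and 260 with DESeq2, 24 and 6 with the deposited FPKM, 54 and 19 at an adjusted p under 0.01, and 1076 and 1023 at an unadjusted p under 0.05. Total count scaling gave 88 higher. With 1 library left out the counts ran from 54 to 92 lower and from 20 to 69 higher. The number of cytosolic genes called lower (5) was 8 with DESeq2, 2 with FPKM, 3 at 0.01, 11 unadjusted and 3 to 6 with 1 library left out, being 3 when any of DOX- replicates 1 and 3 and DOX+ replicate 1 was left out. Unadjusted, 1 cytosolic gene was higher, 2 mitochondrial genes, 1 scaffold gene and 1 tRNA maturation gene were lower, and 2 tRNA maturation genes were higher. DESeq2, the replicate block and the length trend each called 1 tRNA maturation gene lower, and leaving out 1 library called 0 to 1 gene of other tRNA charging lower (1 without DOX+ replicate 3). The ATF4 list (15 lower) gave 7 with FPKM, 25 unadjusted and 13 to 16 with 1 library left out.

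The cytosolic median (-0.10) was -0.084 with total count scaling, -0.070 with FPKM and -0.11 to -0.092 with 1 library left out. The mitochondrial median (0.023) was 0.044, 0.051 and 0.0030 to 0.028. Their difference (-0.13) ran from -0.13 to -0.098 with 1 library left out. Total count scaling and FPKM moved the median of all features to 0.0188 and 0.0219.

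Deviations of same-numbered libraries correlated at -0.462, -0.0918 and -0.301, and those of differently numbered libraries at -0.272 to 0.428. The deviations were taken from each group's own mean, which ties these correlations together. They therefore cannot decide whether the replicate numbers pair the samples. A replicate block called 157 features lower and 135 higher, and 7 cytosolic genes lower.

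The sign of the log2 fold change turned in 21 fits of 9 of the 35 members examined singly, all with a main value of at most 0.0460 in size, and in none of the 16 fits for the other 26. FARSB was at 0.000155 (upper quartile), 0.018 (total count) and 0.032 (FPKM), and YARS2 at 0.0054 (length trend) and 0.00045 (FPKM). With 1 library left out, VARS1 ranged from -0.069 to 0.012, FARSB from -0.017 to 0.017, KARS1 from -0.012 to 0.069, PARS2 from -0.10 to 0.027, YARS2 from -0.050 to 0.0076, CARS2 from -0.024 to 0.038, TARS2 from -0.056 to 0.077, AARS2 from -0.046 to 0.072 and HARS2 from -0.029 to 0.073.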
